A study of Mus musculus with 24 samples.

Results

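Narrow peaks at gene ends are stretches of accessible chromatin that are under 800 bp wide and reach to within 1 kb of the annotated start or stop of a gene in the mouse assembly GRCm38. Of the 75802 peaks counted in this ATAC-seq set, 10014 (13.2%) met both limits. The limits use the width and position of a peak and no measured level. A further 9597 peaks at gene ends (12.7%) were at least 800 bp wide, 36333 peaks lay inside genes away from both ends, and the others lay between genes.

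The accessible regions were measured by ATAC-seq, in which the Tn5 transposase cuts open DNA, in CD8 T cells of C57BL/6J mice taken from spleen and lymph nodes with MACS microbeads. All cells were activated with anti-CD28 and IL-2, cultured for 3 days, and treated from day 2 to day 3. The 4 treatments were sodium lactate together with Oxyrase, an enzyme preparation that consumes dissolved oxygen, 20 mM sodium lactate alone, 20 mM sodium pyruvate, and 20 mM NaCl, which supplies the same sodium without an organic acid. Each treatment had 3 ATAC-seq libraries and 3 poly(A) RNA-seq libraries. The amount of Oxyrase is not given in the labels, and neither is the lactate dose beside it. The labels do not say whether libraries of a group come from separate mice or cultures, so p-values measure only the spread between these libraries, which may be technical.

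Gene starts are where promoters lie, and active promoters are kept free of nucleosomes by the factors that bind there. Many promoters of widely used genes sit in CpG islands, stretches where the C-G step has escaped loss by methylation, and these bind factors such as SP1, NRF1 and ETS proteins. Other promoters and the sequences past gene stops have few CpG steps and are often opened by factors induced in certain cell states, among them AP-1, a dimer of FOS and JUN proteins that T cells induce on activation. Lactate and pyruvate differ in that lactate carries a hydroxyl group where pyruvate has a keto group, and lactate dehydrogenase interconverts them.

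Sequences of 5 gene starts are shown because they stand for the patterns described below. Each is the stretch of 250 bases just upstream of the annotated start, 5′ to 3′, from RefSeq on GRCm38.p6. In Mrpl45 (chr11:97315466-97315715, plus strand), which encodes a protein of the mitochondrial ribosome, and in Zbtb12 (chr17:34894309-34894558, plus strand), which encodes a zinc finger protein, capitals mark the CpG steps, of which there are 19 and 22. The median of all 32851 start windows was 6 in the same stretch. In Ctla4 (chr1:60908775-60909024, plus strand), the gene of an inhibitory receptor, capitals mark 7 CpG steps. In Havcr2 (chr11:46454681-46454930, plus strand), the gene of the inhibitory receptor TIM-3, capitals mark an AP-1 motif (TGANTCA) that begins 200 bases before the start and a RUNX motif (TGTGGT) that begins 46 bases before it. In Itgax (chr7:128129300-128129549, plus strand), the gene of the integrin subunit CD11c, capitals mark an AP-1 motif that begins 56 bases before the start.
Mrpl45: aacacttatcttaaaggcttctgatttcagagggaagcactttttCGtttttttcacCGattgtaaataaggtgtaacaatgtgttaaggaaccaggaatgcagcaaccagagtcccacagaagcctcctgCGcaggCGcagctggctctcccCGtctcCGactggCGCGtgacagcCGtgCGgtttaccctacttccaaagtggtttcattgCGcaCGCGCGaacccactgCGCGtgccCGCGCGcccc
Zbtb12: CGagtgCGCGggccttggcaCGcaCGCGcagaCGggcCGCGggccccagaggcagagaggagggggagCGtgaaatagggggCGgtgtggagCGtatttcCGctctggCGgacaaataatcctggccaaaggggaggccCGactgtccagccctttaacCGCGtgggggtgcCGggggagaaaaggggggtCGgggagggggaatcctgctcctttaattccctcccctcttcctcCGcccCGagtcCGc
Ctla4: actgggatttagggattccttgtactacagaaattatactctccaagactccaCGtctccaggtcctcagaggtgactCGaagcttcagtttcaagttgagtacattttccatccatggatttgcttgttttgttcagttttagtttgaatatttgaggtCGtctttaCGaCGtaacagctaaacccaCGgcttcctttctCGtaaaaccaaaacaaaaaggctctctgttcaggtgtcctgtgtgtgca
Havcr2: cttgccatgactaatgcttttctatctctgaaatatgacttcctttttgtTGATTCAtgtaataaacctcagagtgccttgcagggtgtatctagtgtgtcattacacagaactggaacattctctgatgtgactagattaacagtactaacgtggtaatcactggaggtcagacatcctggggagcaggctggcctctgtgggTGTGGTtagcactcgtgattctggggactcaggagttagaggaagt
Itgax: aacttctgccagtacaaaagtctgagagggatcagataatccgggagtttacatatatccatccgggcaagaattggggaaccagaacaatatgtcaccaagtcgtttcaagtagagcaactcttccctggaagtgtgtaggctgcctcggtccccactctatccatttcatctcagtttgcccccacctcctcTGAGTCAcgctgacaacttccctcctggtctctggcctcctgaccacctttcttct

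The ATAC-seq libraries held 25.31 M to 37.07 M counts in peaks, with a median of 137 to 195 counts per narrow gene-end peak and library, and the biological coefficient of variation was 9.7%. Levels are given as CPM per peak (counts divided by the TMM-scaled library size in M), not per base. In bulk libraries, fewer cells with an open site and less opening per cell cannot be told apart. The summed RNA of 9 CD8 T cell markers was 1890 to 1980 CPM with lactate and Oxyrase, 2510 to 2590 CPM with lactate, 2430 to 2490 CPM with pyruvate and 2660 to 2700 CPM with NaCl. That of 3 CD4 T cell markers was 38.0 to 47.5 CPM with lactate and Oxyrase, 19.6 to 21.1 CPM with lactate, 12.5 to 13.6 CPM with pyruvate and 14.4 to 16.2 CPM with NaCl. The 4 NK cell markers summed were Ncr1, Klrb1c, Eomes and Klri2, some of which CD8 T cells may also make. Their sum was 37.7 to 42.9 CPM with lactate and Oxyrase and 28.0 to 32.6 CPM with lactate. It was 47.7 to 53.1 CPM with pyruvate and 33.2 to 37.6 CPM with NaCl, with no overlap between groups. The part of these differences in the results below was not tested. Across all libraries, 5 B cell markers summed to at most 4.23 CPM and 3 red cell markers, 1 of them at 0 throughout, to at most 0.0896 CPM. One ATAC-seq library stood furthest from its group: in NaCl replicate 3, wide gene-end peaks held 41.44% of all counts. The other NaCl libraries had 44.41% and 44.93%, and lactate had 41.0 ± 0.9% (SD, n = 3). Pyruvate replicate 3 was also the lowest of its group, at 42.36% against 43.99% and 44.52%. In the groups with lactate, with or without Oxyrase, replicate 3 was not the lowest. The main counts against NaCl are also given without NaCl replicate 3.

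The narrow gene-end peaks had a median width of 430.5 bp and a median level of 5.33 CPM (range 0.379 to 503 CPM), close to the 5.36 CPM of all peaks, whereas wide gene-end peaks had a median of 37.3 CPM. They lay near the ends of 9630 genes, 1753 of which had several such peaks. Where RefSeq gave the strand, 4398 lay at a start only, 2209 at a stop only and 470 at both. For 2937 the strand was not known. Start peaks had a median of 6.5 CPM and 51.3% of them overlapped the start base itself, and stop peaks had a median of 4.21 CPM with 10.9% overlapping the stop. The nearest gene was protein-coding for 6129 peaks and a long noncoding RNA for 2771. At the width limit, the 136 gene-end peaks of 790 to 799 bp had a median of 20.3 CPM and the 142 of 800 to 809 bp, just outside, had 23.3 CPM. At the distance limit, the 265 peaks at 951 to 1000 bp had a median of 3.97 CPM and the 295 at 1001 to 1050 bp had 4.39 CPM.

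The narrow gene-end peaks together took 9.5 ± 0.14% of all counts with lactate and Oxyrase, 9.68 ± 0.076% with lactate, 9.98 ± 0.065% with pyruvate and 9.94 ± 0.074% with NaCl (SD, n = 3 each). Start peaks held 4.926%, 4.881% and 4.953% of counts with lactate and Oxyrase, and 5.134%, 5.143% and 5.092% with lactate. They held 5.427%, 5.499% and 5.417% with pyruvate and 5.473%, 5.526% and 5.261% with NaCl. The libraries with lactate and Oxyrase were thus lowest, those with lactate next, and those with pyruvate and NaCl overlapped above them. Stop peaks went the other way in their means, at 1.58 ± 0.062% with lactate and Oxyrase, 1.53 ± 0.044% with lactate, 1.46 ± 0.055% with pyruvate and 1.45 ± 0.067% with NaCl (SD, n = 3 each). Wide gene-end peaks, whose share is part of the same total, held 38.6 ± 0.88% with lactate and Oxyrase, 41.0 ± 0.9% with lactate, 43.6 ± 1.1% with pyruvate and 43.6 ± 1.9% with NaCl. Their part in the shares of the narrow peaks was not tested.

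**Figure D1:**
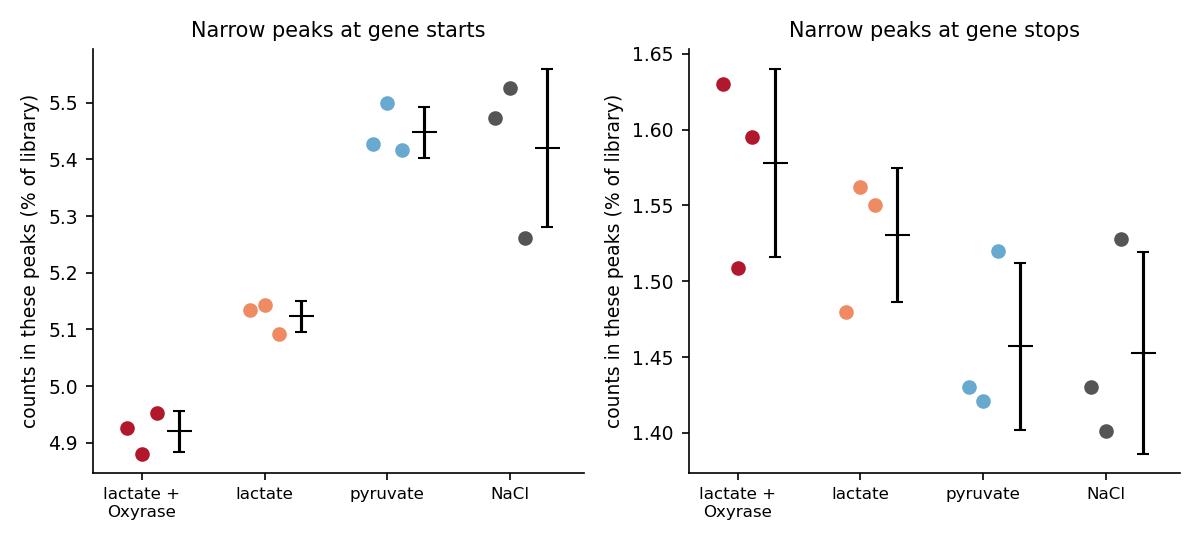
Percent of all ATAC-seq counts of a library that fell in narrow start peaks and in narrow stop peaks, by treatment. Each point is 1 library and bars are group means with SD (n = 3). Start peaks held 4.881 to 4.953% with lactate and Oxyrase, below all 9 other libraries. The vertical axes do not begin at 0.

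The first comparison sets lactate together with Oxyrase against NaCl. None of the 4 groups had Oxyrase without lactate, so the parts of the additions cannot be told apart in it. Oxygen levels are not among the data used here. With lactate and Oxyrase, 4059 of the 10014 narrow gene-end peaks (40.5%) differed from NaCl at an adjusted p under 0.05, edgeR's quasi-likelihood test with Benjamini-Hochberg adjustment over all peaks, against 40.7% of all peaks. Of these, 1560 were higher and 2499 lower, where 21.5% and 19.2% of all peaks were called in those directions. The share called was close to that of all peaks. The lower majority depended on the scaling: 61.6% of the called peaks were lower with TMM, 46.6% with total counts alone, 49% with TMM factors from the narrow gene-end peaks alone, and 69% with a loess trend on mean accessibility removed. Without NaCl replicate 3, 4035 were called.

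Starts and stops differed in their counts of higher and lower peaks. Of the start peaks, 589 rose and 1368 fell against NaCl, and falls outnumbered rises under all 4 other scalings (from 817 higher and 1068 lower to 488 higher and 1460 lower). Of the stop peaks, 446 rose and 353 fell, a higher majority that held with total counts (569 and 223) and turned with the loess trend removed (358 and 474). Peaks near both a start and a stop, of 1 gene or of different genes, resembled start peaks in their counts, with 54 higher and 187 lower. Of the 2255 start peaks that overlapped the start base, 225 rose and 985 fell, and of the 2143 that did not, 364 rose and 383 fell. Wide gene-end peaks, by the same test, had 536 higher and 5091 lower. The difference between these classes was not itself tested.

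**Figure D2:**
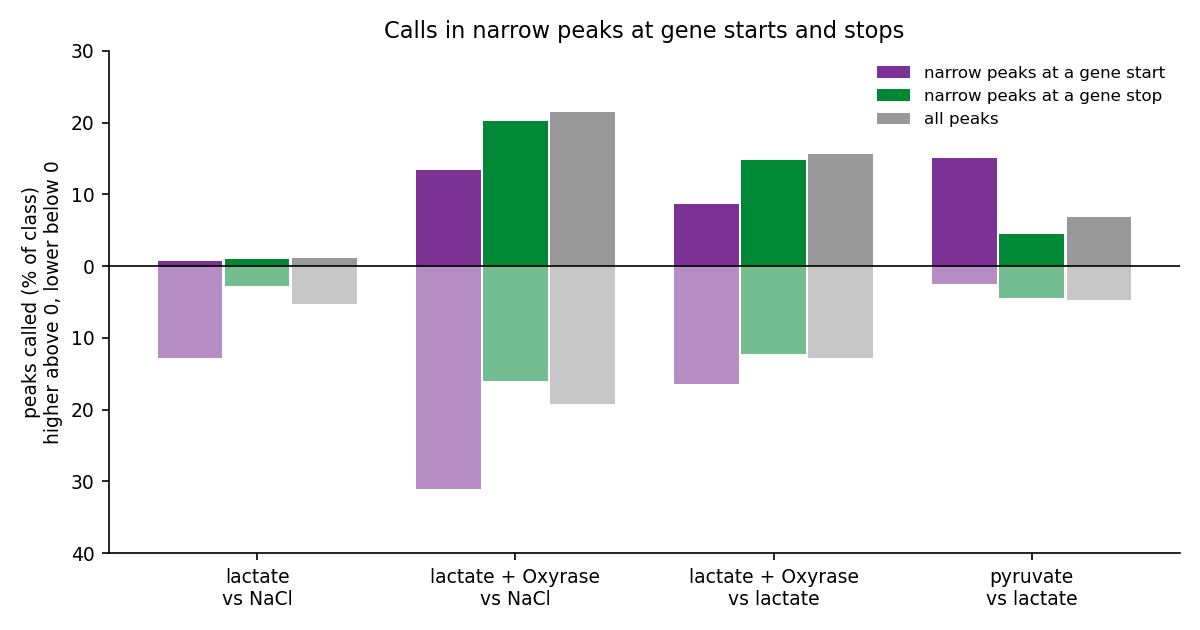
Narrow gene-end peaks called higher or lower (adjusted p under 0.05), as percent of the start peaks, of the stop peaks and of all peaks, in 4 comparisons. Bars above 0 are higher and bars below 0 lower. In lactate with Oxyrase against NaCl, 589 start peaks were higher and 1368 lower, and 446 stop peaks were higher and 353 lower, which became 358 and 474 with the loess trend removed.

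The level of a narrow gene-end peak moved with its direction as well. Among narrow gene-end peaks over 16 CPM, 178 of 1818 rose (9.79%) and 1089 fell (59.9%) with lactate and Oxyrase against NaCl. Of wide gene-end peaks over 16 CPM, 3.38% rose and 57.8% fell. Peaks away from gene ends at that level were closer to balance. Inside genes 24.1% rose and 26.4% fell, and between genes, 1 to 50 kb out, 26.7% and 25.6%. Among narrow gene-end peaks under 2 CPM, 175 of 1446 rose and 94 fell, which became 118 and 143 with the loess trend on mean accessibility removed. For narrow gene-end peaks over 16 CPM, falls outnumbered rises under every scaling run, with 304 higher and 895 lower when the loess trend was removed. The part of peak level in the split between starts and stops was not tested.

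The largest rise at a start, among named peaks of at least 4 CPM on average, was at Sh2d4b (chr14:40902408-40903116), which encodes an SH2 domain protein. Its peak had 18.2, 17.3 and 15.6 CPM with lactate and Oxyrase, 7.44, 6.78 and 7.46 CPM with lactate, 7.37, 7.13 and 6.32 CPM with pyruvate, and 6.18, 6.17 and 5.44 CPM with NaCl. All 3 libraries with lactate and Oxyrase lay far above the 9 others, a 2.88-fold rise over NaCl (log2 fold change 1.53, SE 0.12, adjusted p = 1.49e-13). Peaks named for the largest changes in a comparison had to have groups that do not overlap in it, so that separation was set by the choice.

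At the stop of Dusp16 (chr6:134715749-134716540), a phosphatase that acts on MAP kinases, the peak had 34.4, 38.8 and 33.2 CPM with lactate and Oxyrase, 14.5, 13.7 and 15.1 CPM with lactate, 12.7, 11.7 and 15.7 CPM with pyruvate, and 12.6, 12 and 13.3 CPM with NaCl. Again the libraries with Oxyrase stood alone, and the pyruvate libraries overlapped those of lactate and of NaCl. The rise was 2.81-fold over NaCl (log2 fold change 1.49, SE 0.10, adjusted p = 3.02e-15). The RNA of Dusp16 was 51.2 ± 2.2 CPM with lactate and Oxyrase and 36.4 ± 1.4 CPM with NaCl (SD, n = 3 each; log2 fold change 0.49, adjusted p = 3.33e-07).

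Among named peaks, the deepest fall was by a start. A peak 1000 bp from the start of Mllt6 (chr11:97661759-97662122), a gene found fused to MLL in leukaemia, had 7.77, 10.2 and 8.95 CPM with lactate and Oxyrase, 18, 15.2 and 14.6 CPM with lactate, 27.4, 27.5 and 22.6 CPM with pyruvate, and 29.4, 34.2 and 18.6 CPM with NaCl. The groups with lactate lay below every NaCl library, lowest with Oxyrase, and pyruvate overlapped NaCl, whose replicate 3 was its lowest. The fall with lactate and Oxyrase was 3.05-fold (log2 fold change -1.61, SE 0.13, adjusted p = 1.08e-12), while Mllt6 RNA was 256 ± 3.68 CPM with lactate and Oxyrase and 260 ± 11.1 CPM with NaCl (SD, n = 3 each; adjusted p = 0.678).

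Zbtb12, whose CpG-rich start is printed above, had a peak over its start (chr17:34894123-34894888) at 12.6, 14.3 and 12.9 CPM with lactate and Oxyrase, 22.2, 21.5 and 18.8 CPM with lactate, 32.7, 35.4 and 32.8 CPM with pyruvate, and 33.8, 40.4 and 25.1 CPM with NaCl. The order was that of Mllt6, and only pyruvate overlapped NaCl. Against NaCl it fell 2.49-fold with lactate and Oxyrase (log2 fold change -1.31, SE 0.11, adjusted p = 1.62e-12), and Zbtb12 RNA did not pass the test (log2 fold change 0.15, adjusted p = 0.439). Lactate means lay between those with Oxyrase and those with NaCl at 2194 of the 2499 fallen peaks and at 1202 of the 1560 that rose. Both comparisons share the NaCl libraries.

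**Figure D3:**
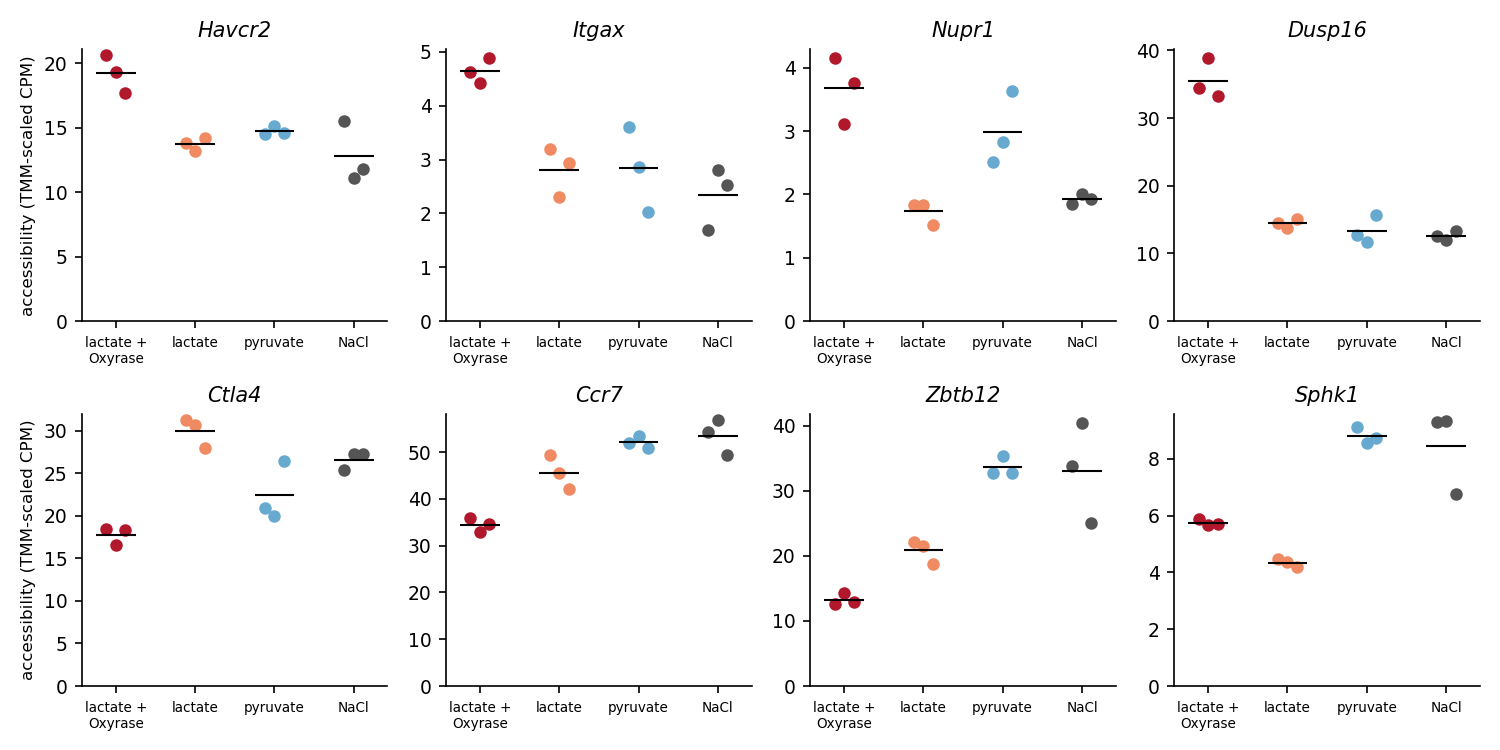
Accessibility in CPM of 8 narrow gene-end peaks in each library, by treatment. Each point is 1 library and bars are group means (n = 3). The means of Havcr2, Itgax, Nupr1 and Dusp16 were highest with lactate and Oxyrase, those of Ctla4, Ccr7 and Zbtb12 were lowest there, and Sphk1 was low in both groups with lactate.

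The group with Oxyrase differs from lactate alone by Oxyrase and possibly by the dose of lactate, which the labels give only for lactate alone. Between these groups, 2487 narrow gene-end peaks (24.8%) differed, against 28.4% of all peaks. Of these 1048 were higher and 1439 lower, where 15.6% and 12.8% of all peaks were. The share lower was 57.9% with TMM, 50.4% with total counts and 44.8% with TMM from the narrow gene-end peaks. Start peaks had 378 higher and 721 lower, and falls outnumbered rises under all 4 other scalings, most narrowly at 447 higher and 492 lower with TMM from the narrow gene-end peaks. Stop peaks had 328 higher and 271 lower, turning to 292 and 340 with the loess trend removed. The median log2 fold change was 0.59 over the called peaks that rose and -0.42 over those that fell.

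Dusp16, with the values above, was among the 4 largest named rises here, at a log2 fold change of 1.29 over lactate (adjusted p = 3.46e-13). Its RNA rose by 0.63 on the log2 scale (51.2 ± 2.2 CPM with lactate and Oxyrase and 33.1 ± 1.25 CPM with lactate; SD, n = 3 each; adjusted p = 1.68e-08). At the stop of Bax (chr7:45460967-45461201), which encodes a protein that permeabilises mitochondria in apoptosis, the peak rose with a log2 fold change of 1.27 (SE 0.16, adjusted p = 2.72e-08) while Bax RNA changed by -0.28 (adjusted p = 0.000914). At the stop of Exoc6b (chr6:84617036-84617538), a subunit of the exocyst, the peak changed by -1.24 (SE 0.14, adjusted p = 6.74e-09) and its RNA by -0.04 (adjusted p = 0.641).

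Lactate alone was set against NaCl to ask what lactate did without Oxyrase. It changed 949 narrow gene-end peaks (9.48%), against 6.41% of all peaks, with 84 higher and 865 lower, where 1.13% and 5.28% of all peaks were called. Of the called peaks 91.1% were lower with TMM, 74.4% with total counts and 83.8% with TMM from the narrow gene-end peaks. The count moved with single libraries: it was 1739 without NaCl replicate 3, 188 without NaCl replicate 2, 319 without NaCl replicate 1, 293 without lactate replicate 3 and 527 without lactate replicate 2. Start peaks had 30 higher and 561 lower, which became 119 and 878 without NaCl replicate 3, 0 and 117 without NaCl replicate 2, and 68 and 392 with total counts. Stop peaks had 23 higher and 61 lower, which turned to 59 and 32 with total counts and became 109 and 115 without NaCl replicate 3 and 1 and 11 without NaCl replicate 2. Wide gene-end peaks had 33 higher and 1883 lower, which became 197 and 3682 without NaCl replicate 3 and 0 and 286 without NaCl replicate 2. In each of these 3 classes, leaving out NaCl replicate 1, lactate replicate 2 or lactate replicate 3 also moved the total by over 1.5 times.

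The deepest fall with lactate among named peaks was 809 bp from the start of Sphk1 (chr11:116531645-116531970), the kinase that makes sphingosine 1-phosphate. It had 5.87, 5.67 and 5.72 CPM with lactate and Oxyrase, 4.46, 4.37 and 4.2 CPM with lactate, 9.11, 8.56 and 8.72 CPM with pyruvate, and 9.3, 9.32 and 6.78 CPM with NaCl. Both groups with lactate lay below every library of pyruvate and NaCl, and lactate alone was lower than lactate with Oxyrase. The fall was 1.94-fold against NaCl (log2 fold change -0.96, SE 0.14, adjusted p = 0.000129). Sphk1 RNA was 0.481 ± 0.0445 CPM with lactate and 0.816 ± 0.12 CPM with NaCl (SD, n = 3 each), which did not pass the test (adjusted p = 0.101).

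Other peaks fell with lactate, among them some at genes of T cell activation. The start peak of Fosb (chr7:19310007-19310507), an AP-1 subunit, had 16.3, 15.4 and 16.6 CPM with lactate and Oxyrase, 21.3, 18.6 and 19.9 CPM with lactate, and 34.3, 33.7 and 23.2 CPM with NaCl (log2 fold change with lactate -0.60, adjusted p = 0.000451). The groups did not overlap, and NaCl replicate 3 lay nearest to lactate. The start peak of Hdac5 (chr11:102229892-102230556), a histone deacetylase, changed by -0.53 (adjusted p = 0.000823) and the peak 801 bp from the stop of Lta (chr17:35201905-35202364), a gene of the tumour necrosis factor family, by -0.58 (adjusted p = 0.000811). The Lta peak also overlaps the start window of the neighbouring Tnf. The stop peak of Gadd45b, a stress-induced growth arrest gene, changed by -0.76 (adjusted p = 0.000331). The calls at Sphk1, Fosb, Hdac5, Lta and Gadd45b held under every alternative run, whereas 21 of the 31 named calls in this comparison were lost under at least 1.

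Pyruvate and lactate form the 1 pair of related compounds here, given at the same 20 mM over the same time. With pyruvate against lactate, 1382 narrow gene-end peaks (13.8%) differed, against 11.6% of all peaks, 1060 of them higher and 322 lower, where 6.84% and 4.78% of all peaks were. The share lower was 23.3% with TMM, 39.6% with total counts and 35.1% with TMM from the narrow gene-end peaks. Leaving out 1 library gave 650 peaks without lactate replicate 3, 769 without pyruvate replicate 2, 873 without lactate replicate 2, 893 without pyruvate replicate 1, and up to 1262 without the others. Start peaks had 663 higher and 111 lower, and 540 and 194 with total counts, while stop peaks had 99 higher and 98 lower, and 68 and 162 with total counts. Without lactate replicate 3 these were 337 and 33 at starts and 53 and 35 at stops. For 52.6% of the 10014 peaks, the 95% interval of the difference lay within 1.5-fold in either direction.

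Sphk1, with the values above, was 2.03-fold higher with pyruvate than with lactate (log2 fold change 1.02, SE 0.14, adjusted p = 2.74e-05), and its RNA was 1.79 ± 0.492 CPM with pyruvate and 0.481 ± 0.0445 CPM with lactate (SD, n = 3 each; log2 fold change 1.9, adjusted p = 4.23e-05). The peak at the start of Mrpl45 (chr11:97315419-97316103), printed above, had 29.3, 31.0 and 25.4 CPM with pyruvate and 18.6, 15.4 and 13.8 CPM with lactate. The peak was higher with pyruvate (log2 fold change 0.84, SE 0.11, adjusted p = 2.74e-05), and Mrpl45 RNA differed little (log2 fold change 0.14, adjusted p = 0.0126). A start peak of Tcf7, the transcription factor TCF-1 of naive and memory T cells, had 14.7, 14.8 and 14.0 CPM with pyruvate and 9.1, 10.1 and 8.49 CPM with lactate (log2 fold change 0.65, adjusted p = 0.000386). In the other direction, the start peak of Ctla4 (chr1:60908798-60909396) had 20.9, 20.0 and 26.4 CPM with pyruvate and 31.2, 30.7 and 27.9 CPM with lactate (log2 fold change -0.42, SE 0.09, adjusted p = 0.0024), and Ctla4 RNA was 314 ± 11.0 CPM with pyruvate and 421 ± 29.8 CPM with lactate (SD, n = 3 each; adjusted p = 3.15e-05).

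Pyruvate against NaCl gave no call among the narrow gene-end peaks, as among all peaks (0.0%), with edgeR, and none with DESeq2. At an unadjusted p under 0.05 there were 484 narrow gene-end peaks of 10014, and the lowest adjusted p was 0.476. The middle 90% of log2 fold changes ran from -0.31 to 0.31, and for 67.2% of the peaks the 95% interval lay within 1.5-fold. No call was made when any 1 library was left out.

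The base composition of starts went with the calls. A start window of 300 bases (250 before and 50 after the start) from RefSeq overlapped 2930 of the narrow peaks, in whole or in part. The window of largest overlap was used, and it may reach beyond the peak. These windows had a median GC content of 58.0%, against 52.7% over all 32851 windows. Their median CpG ratio (CpG steps observed over those expected from C and G content) was 0.64, against 0.38. Among the 1587 peaks with a CpG ratio over 0.6, 72 rose and 912 fell with lactate and Oxyrase against NaCl, 34 rose and 422 fell against lactate, 2 rose and 462 fell with lactate against NaCl, and 520 rose and 8 fell with pyruvate against lactate. These directions held under all 4 other scalings. Single libraries moved the counts: with lactate against NaCl they became 7 and 701 without NaCl replicate 3 and 0 and 109 without NaCl replicate 2, and with pyruvate against lactate 288 and 4 without lactate replicate 3. Among the 1343 with a ratio up to 0.6, 246 rose and 303 fell with lactate and Oxyrase against NaCl, a split that turned to 318 and 214 with total counts, and 13 rose and 89 fell with lactate against NaCl, which became 48 and 154 without NaCl replicate 3 and 0 and 23 without NaCl replicate 2.

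CpG-rich starts were also more accessible, so the peaks were split at 8 CPM as well. This did not make levels equal. Over 8 CPM the median was 22.3 CPM at a CpG ratio over 0.6 and 16.2 CPM at a ratio up to 0.6. Up to 8 CPM it was 4.04 and 3.57 CPM. Of the 1069 with a CpG ratio over 0.6 and over 8 CPM, 21 rose and 791 fell (74.0%) with lactate and Oxyrase against NaCl. Of the 576 over 8 CPM with a ratio up to 0.6, 100 rose and 220 fell. Of the 518 with a ratio over 0.6 and up to 8 CPM, 51 rose and 121 fell, and of the 767 with a ratio up to 0.6 and up to 8 CPM, 146 rose and 83 fell, which turned to 96 and 139 with the loess trend removed. Falls were thus more frequent in CpG-rich windows on both sides of 8 CPM, by counts that were not tested against each other. The part of the remaining difference in level was not tested.

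Letters of transcription factor motifs were sought in the start windows on both strands, with 13 motifs searched. The AP-1 motif TGANTCA was in 7.81% of all 32851 windows and in 9.35% of those that overlapped narrow peaks. It was in 36.4% of the 198 that rose with lactate and Oxyrase against lactate, in 4.62% of the 585 that fell and in 8.15% of those not called. Among windows with a CpG ratio up to 0.6 it was in 66 of 164 that rose (40.2%), in 11 of 163 that fell (6.75%) and in 11.2% of those not called. Read from the motif, 274 peaks had these letters in their window. Against lactate 72 of them were higher and 27 lower, between 69 and 29 and 80 and 19 under the other scalings. The 2656 peaks without the letters had 126 higher and 558 lower. Against NaCl, those with the letters had 88 higher and 67 lower with lactate and Oxyrase, and 2 higher and 31 lower with lactate, the last becoming 8 and 47 without NaCl replicate 3 and 0 and 7 without NaCl replicate 2.

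Among other motifs, the SP/KLF motif GGGCGG, in 35.7% of all windows, was in 28.9% of windows that rose and 65.4% of those that fell with lactate and Oxyrase against NaCl, and in 24.2% and 63.9% against lactate. The RUNX motif TGTGGT, in 16.8% of all windows, was in 27.7% of windows that rose with lactate and Oxyrase against NaCl and 12.6% of those that fell. The ETS motif CCGGAAGT, in 3.89% of all windows, was in 2.2% and 9.79%, and the NRF1 motif, a palindrome of GCGC flanks, in 4.6% of all, was in 0.943% and 8.07%. The core of the hypoxia response element, ACGTG or GCGTG, was in 43.8% of all windows, in 49.7% of those that rose and in 66.2% of those that fell. The SP/KLF, ETS, NRF1 and hypoxia motifs contain CpG steps, so they share base composition with the CpG ratio. A match describes the letters in the window and not binding, and it may lie outside the peak.

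**Figure D4:**
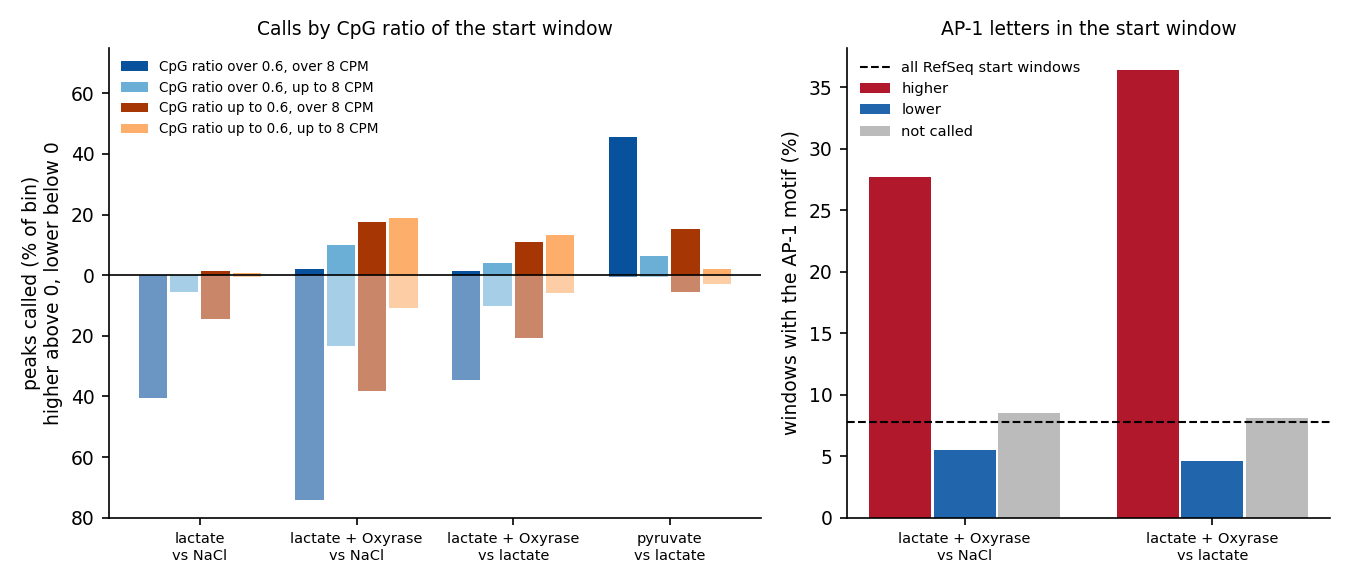
Left, percent of narrow peaks called higher (above 0) or lower (below 0), by CpG ratio of the overlapping start window and by peak level. Right, percent of windows with the AP-1 motif among peaks called higher, lower or not called, with a dashed line for all windows. The AP-1 motif was in 36.4% of windows that rose with lactate and Oxyrase against lactate and in 4.62% of those that fell, against 7.81% of all windows.

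Havcr2, an inhibitory receptor gene with the AP-1 and RUNX motifs shown above, had a start peak (chr11:46454611-46455092) of 20.6, 19.3 and 17.7 CPM with lactate and Oxyrase, 13.8, 13.2 and 14.2 CPM with lactate, 14.5, 15.1 and 14.6 CPM with pyruvate, and 15.5, 11.1 and 11.8 CPM with NaCl. All libraries with lactate and Oxyrase lay above all others, by log2 fold changes of 0.59 over NaCl (SE 0.11, adjusted p = 1.25e-05) and 0.48 over lactate (SE 0.10, adjusted p = 0.000422). Havcr2 RNA was 36.7 ± 2.07 CPM with lactate and Oxyrase, 1.47 ± 0.317 CPM with lactate, 18.8 ± 3.53 CPM with pyruvate and 1.34 ± 0.598 CPM with NaCl (SD, n = 3 each). With pyruvate the RNA was higher than with lactate (log2 fold change 3.68, adjusted p = 1.58e-09), while the peak differed by 0.10 (SE 0.11, 95% interval -0.15 to 0.34, adjusted p = 0.603).

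The start peak of Itgax (chr7:128129247-128129680), with its AP-1 motif, had 4.62, 4.43 and 4.89 CPM with lactate and Oxyrase, 3.2, 2.3 and 2.94 CPM with lactate, 3.61, 2.87 and 2.03 CPM with pyruvate, and 1.7, 2.81 and 2.52 CPM with NaCl. Only the libraries with Oxyrase stood clear of the rest (log2 fold change 0.98 over NaCl, SE 0.20, adjusted p = 8.75e-05). Its RNA was low, at 0.769 ± 0.189 CPM with lactate and Oxyrase and 0.01 ± 0.0174 CPM with NaCl (SD, n = 3 each). Itgax is also made by myeloid and dendritic cells: the summed RNA of 7 such markers, Itgax included, was 1.02 to 1.45 CPM with lactate and Oxyrase, 0.211 to 0.509 CPM with lactate, 0.32 to 0.681 CPM with pyruvate and 0.384 to 0.435 CPM with NaCl. Their part in the peak was not tested.

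Nupr1, a stress-induced regulator, had a start peak (chr7:126625471-126625783) of 4.16, 3.12 and 3.76 CPM with lactate and Oxyrase, 1.84, 1.84 and 1.52 CPM with lactate, 2.52, 2.83 and 3.63 CPM with pyruvate, and 1.85, 2.0 and 1.93 CPM with NaCl. Lactate with Oxyrase and pyruvate overlapped above lactate and NaCl. The rise with lactate and Oxyrase was 0.93 over NaCl on the log2 scale (SE 0.20, adjusted p = 0.000223), and Nupr1 RNA was 46.8 ± 12.4 CPM with lactate and Oxyrase and 4.57 ± 0.613 CPM with NaCl (SD, n = 3 each; adjusted p = 1.54e-11).

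Ctla4 had a start peak of 18.4, 16.6 and 18.3 CPM with lactate and Oxyrase, against 31.2, 30.7 and 27.9 CPM with lactate and 25.4, 27.2 and 27.2 CPM with NaCl. The libraries with Oxyrase were lowest and those with lactate alone highest of these, by -0.75 on the log2 scale with lactate and Oxyrase against lactate (SE 0.10, adjusted p = 5.35e-08). Ctla4 RNA was 157 ± 7.23 CPM with lactate and Oxyrase, 421 ± 29.8 CPM with lactate and 393 ± 28.0 CPM with NaCl (SD, n = 3 each). At an end of Ccr7, a homing receptor of naive and memory T cells, the peak (chr11:99154900-99155520) had 35.9, 32.9 and 34.7 CPM with lactate and Oxyrase and 54.2, 56.9 and 49.4 CPM with NaCl (log2 fold change -0.63, adjusted p = 1.71e-07), and Ccr7 RNA was 445 ± 7.06 CPM with lactate and Oxyrase and 731 ± 30.4 CPM with NaCl (SD, n = 3 each).

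Peak and RNA did not move alike throughout. The start peak of Il7r (chr15:9529585-9530147), the receptor chain for interleukin-7, fell against NaCl (log2 fold change -0.54, adjusted p = 2.65e-06) while Il7r RNA rose (log2 fold change 0.48, adjusted p = 4.44e-06). The peak by the stop of Lta, which also overlaps the start window of Tnf, changed by -1.09 on the log2 scale (adjusted p = 1.96e-10). Lta RNA rose by 0.82 (adjusted p = 6.08e-10), and Tnf RNA is not reported here. A peak at an end of Ccl5, a chemokine gene, changed by -0.54 (adjusted p = 4.82e-05) while its RNA changed by 2.48. The RNA values were adjusted by the authors before deposit, so their spread within groups may be too small and their p-values too low.

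Over all genes whose start lay at a narrow peak, 2359 were tested in RNA. At 504 of the 2359 a wide peak also lay within 1 kb of the same start. With lactate and Oxyrase against lactate, 1263 of the 2359 genes (53.5%) changed, against 49.7% of all genes. Of these 685 rose and 578 fell, against 26.1% and 23.6% of all genes. RNA rose at 67 and fell at 11 of the 121 genes whose start peak rose (median log2 fold change of RNA 0.5). It rose at 122 and fell at 206 of the 615 whose peak fell (median -0.06), and rose at 30.6% and fell at 22.2% of the 1623 whose peak was not called. Against NaCl, 1321 genes (56.0%) changed, against 50.8% of all genes: 713 rose and 608 fell, against 26.5% and 24.3%. RNA rose at 101 and fell at 26 of the 205 genes with a risen peak, and rose at 302 and fell at 356 of the 1196 with a fallen peak.

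In the other comparisons RNA followed the start peak less, or not at all. With lactate against NaCl, 218 of the 2359 genes (9.24%) changed in RNA, against 7.73% of all genes (107 rose and 111 fell, against 3.61% and 4.12%), and of the 573 genes whose start peak fell, RNA rose at 19 and fell at 32. With pyruvate against lactate, 632 (26.8%) changed, against 24.0% (330 rose and 302 fell, against 13.0% and 10.9%). Of the 663 genes whose peak was higher with pyruvate, RNA rose at 80 (12.1%) and fell at 114 (17.2%), the reverse of the peak. At the 1648 genes whose peak was not called, RNA rose at 14.7% and fell at 11.0%. With pyruvate against NaCl, 444 (18.8%) changed in RNA, against 15.7% (255 rose and 189 fell, against 9.4% and 6.28%), and no peak did.

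**Figure D5:**
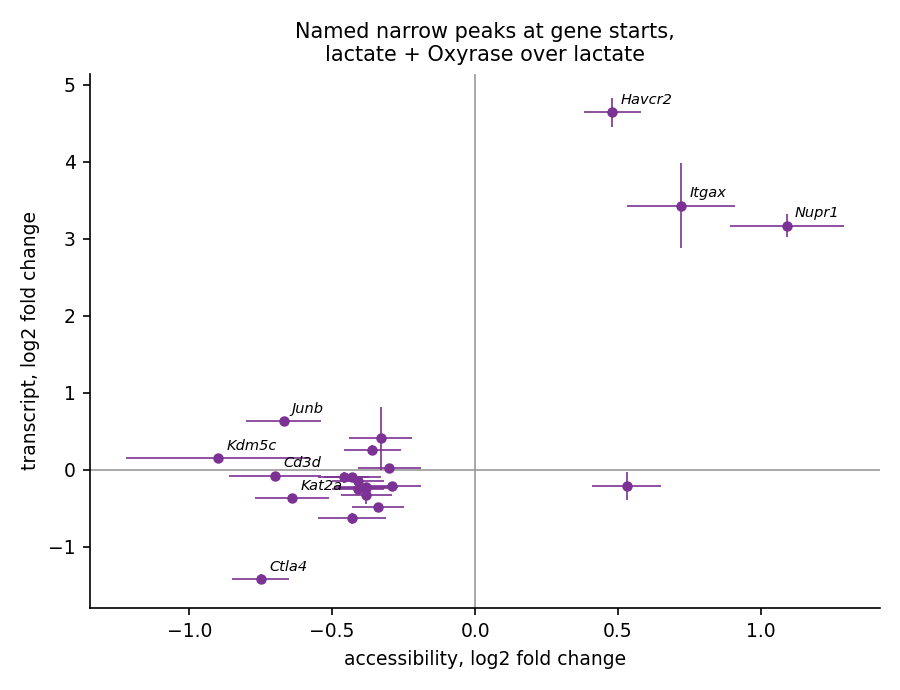
Log2 fold change of RNA against log2 fold change of the start peak, lactate with Oxyrase over lactate, for 22 named start peaks. Each point is 1 peak and its gene, with bars of 1 SE. Havcr2, Itgax and Nupr1 lie at upper right (RNA 4.64, 3.43 and 3.17) and Ctla4 at lower left (RNA -1.42, peak -0.75), while Junb has a lower peak and higher RNA.

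Genes of T cell receptor signalling and costimulation had 37 narrow peaks at 21 of the 38 genes listed. As a background to the lists, 15.6% of all narrow gene-end peaks rose and 25% fell with lactate and Oxyrase against NaCl, as did 21.5% and 19.2% of all peaks. In this list 1 rose and 16 fell against NaCl (12 to 18 fell under other scalings), and 1 rose and 11 fell against lactate. With lactate against NaCl 0 rose and 8 fell, which became 0 and 1 without NaCl replicate 2, and with pyruvate against lactate 10 rose and 3 fell, which became 3 and 1 without lactate replicate 3. The median was -0.20 with lactate and Oxyrase against NaCl, beside -0.05 over the 10014 narrow gene-end peaks and 0.03 over all peaks. Among those that fell were a start peak of Junb, an AP-1 subunit, with 7.2, 7.57 and 7.45 CPM with lactate and Oxyrase and 17.1, 18.3 and 13.2 CPM with NaCl (log2 fold change -1.12, adjusted p = 1.22e-09), and the start peak of Fosb. Other narrow peaks by Junb had means of 36.2, 30.0 and 43.4 CPM with lactate and Oxyrase and 53.2, 52.0 and 60.3 CPM with NaCl. Each peak of a gene was counted singly in the list. Junb RNA changed by 0.64 and Fosb RNA by -1.29.

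Transcription factors of CD8 T cell fate had 29 peaks, of which 1 rose and 10 fell with lactate and Oxyrase against NaCl (7 to 11 fell under other scalings). The start peak of Id3, an inhibitor of E proteins, had 20.5, 20.2 and 20.5 CPM with lactate and Oxyrase and 34.2, 35.0 and 29.2 CPM with NaCl, with no overlap (log2 fold change -0.68, adjusted p = 5.4e-08). A start peak of Tcf7 changed by -0.78 (SE 0.12, adjusted p = 1.19e-06). Inhibitory receptors and exhaustion factors had 16 peaks, of which 1, at Havcr2, rose and 6 fell. Nr4a1, an orphan nuclear receptor induced by antigen receptor signalling, changed by -0.91 at its start (SE 0.09, adjusted p = 1.61e-10). Genes of naive and memory cells and homing had 18 peaks, of which 2 rose and 5 fell, a split that became 4 and 4 with total counts.

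Genes of oxygen sensing and HIF targets had 17 peaks, of which 3 rose and 3 fell with lactate and Oxyrase against NaCl, and the median was 0.05. Hif1an, the asparaginyl hydroxylase that acts on HIF, changed by -0.80 at its start (adjusted p = 9.27e-09), and Pfkfb4, which makes a regulator of glycolysis, by 0.82 (adjusted p = 1.21e-06). Their RNA changed by -0.14 and -0.22. Genes of glycolysis and of lactate or pyruvate handling had 12 peaks, of which 3 rose, 2 at Gapdh and 1 at the lactate transporter gene Slc16a3, and 0 fell. The calls at the stop of Gapdh and at Slc16a3 did not hold under every alternative, both being lost without NaCl replicate 2 or without replicate 1 of lactate and Oxyrase. Chromatin enzymes had 7 peaks, of which 0 rose and 5 fell, with the start peak of Hdac5 at -0.91 (adjusted p = 1.35e-09). Among genes of NRF2 and glutathione, with 9 peaks, 1 rose, at Hmox1, which degrades heme (log2 fold change 0.47, adjusted p = 3.24e-05; RNA 2.05), and 2 fell.

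Of the remaining lists, interferon-stimulated genes had 23 peaks with 6 higher and 7 lower, p53 targets and arrest genes 12 with 4 and 5, and integrated stress genes 7 with 3 and 2, all for lactate and Oxyrase against NaCl. Cytokines and chemokines had 13 peaks with 1 higher and 3 lower, and cytotoxic genes 9 with 1 and 2. MYC and ribosome biogenesis genes had 10 peaks with 0 higher and 4 lower, which became 3 and 4 without NaCl replicate 3, and replication and mitosis genes 10 with 0 and 4. NK-type receptors had 11 with 2 and 2, heat shock genes 6 with 1 and 0, and genes of other blood cells 14 with 1 and 4. Without NaCl replicate 1 the genes of other blood cells had 1 and 2, and the heat shock call was lost without NaCl replicate 1 or 2 or without replicate 1 or 3 of lactate and Oxyrase. In these lists the higher and lower counts differed by at most 4, and those of interferon-stimulated genes turned to 6 and 4 with TMM from the narrow gene-end peaks.

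Noncoding and immune receptor genes also had narrow peaks at their ends. Among 128 peaks at microRNA genes, whose products pair through the seed with messenger RNAs, 15 rose and 46 fell with lactate and Oxyrase against NaCl (17 and 35 with TMM from the narrow gene-end peaks), where 15.6% and 25% of all narrow gene-end peaks did. Among 96 peaks at antigen receptor V segments, 2 rose and 23 fell with lactate and Oxyrase against lactate (20 to 30 fell under other scalings), where 10.5% and 14.4% of all narrow gene-end peaks did. With pyruvate against lactate 0 rose and 10 fell, where 10.6% and 3.22% did. Against NaCl the V segments had 6 higher and 15 lower (15.6%) with lactate and Oxyrase, where 25% of all narrow gene-end peaks fell. With lactate against NaCl 4 rose and 0 fell, where 0.839% and 8.64% of narrow gene-end peaks did. Without lactate replicate 3 the V segments had 1 higher and 15 lower with lactate and Oxyrase against lactate. V segments have near-identical copies, between which reads may be split, so these counts are uncertain. MicroRNAs known in lymphocytes, named after their values were seen, are shown as mature RefSeq sequences on GRCm38.p6 with the seed, bases 2 to 8, in capitals. These examples do not reflect the directions of the list, in which falls outnumbered rises. No seed is shared. MicroRNA levels themselves were not measured here, since the RNA libraries were made by poly(A) capture.
mmu-miR-155-5p: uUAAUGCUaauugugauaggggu
mmu-miR-28a-5p: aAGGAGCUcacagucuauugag
mmu-miR-191-5p: cAACGGAAucccaaaagcagcug

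The peak over the hairpin of Mir155 (chr16:84714066-84714386), a microRNA that T cells induce on activation, had 16.6, 20.1 and 17.8 CPM with lactate and Oxyrase, 12.9, 12.7 and 14.4 CPM with lactate, 11.0, 11.0 and 12.8 CPM with pyruvate, and 11.1, 9.46 and 10.9 CPM with NaCl. The libraries with Oxyrase were above all others, by 0.79 over NaCl on the log2 scale (SE 0.11, adjusted p = 5.34e-08) and 0.45 over lactate (adjusted p = 0.000938). Another narrow peak by the same gene, upstream of the hairpin, had 49.6, 65.9 and 55.9 CPM with lactate and Oxyrase and 54.8, 58.4 and 51.8 CPM with NaCl, which overlapped (adjusted p = 0.676). The peak by Mir28a (chr16:24828317-24828807) had 20.7, 22.3 and 18.4 CPM with lactate and Oxyrase and 12.7, 13.1 and 13.8 CPM with NaCl (log2 fold change 0.63, adjusted p = 1.61e-06). The peak by Mir191 went the other way, with 3.31, 2.49 and 3.36 CPM with lactate and Oxyrase and 4.86, 5.77 and 5.35 CPM with NaCl, and again no overlap (log2 fold change -0.80, SE 0.16, adjusted p = 5.28e-05).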

How the data were processed

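Per the file headers and the submitters' processing notes, the authors deposited raw read counts per ATAC-seq peak (mm10), with duplicate and mitochondrial reads taken out; the notes name Trimmomatic, BWA, Picard, MACS2 and bedtools. For RNA-seq the authors deposited estimated counts per gene (RSEM 1.2.12 and Bowtie2 2.2.0, per the same notes), in a file named as adjusted. The kind of adjustment is not given in the sources used here, and the estimated counts were rounded.

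Each peak was placed against the gene coordinates of GRCm38.p6, with both ends of each gene used, and strand was taken from the RefSeq start windows. Whether deposited starts count from 0 is not stated. For each assay, the 12 libraries were fitted together by the quasi-likelihood method of edgeR 4.0.16 (TMM, filterByExpr, group as the only term, 8 residual degrees of freedom) over all 75802 peaks or 14749 genes, with Benjamini-Hochberg adjustment and a threshold of 0.05. The filter removed no peak. SEs were obtained from the fold change and its F statistic, and 95% intervals use 8 degrees of freedom. Tools were R 4.3.3, limma 3.58.1, DESeq2 1.42.0 and Python 3.11.15. The fits were tested on simulated data.

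The peaks and the 18 gene lists were chosen with earlier results of these data known. Peaks are named by rule: per comparison, the 4 highest and 4 lowest called log2 fold changes at a mean of 2 or more on the log2 CPM scale, groups that do not overlap and a symbol that is not predicted; up to 3 called peaks per list by smallest p; and the peak of smallest p at each of 20 fixed genes. MicroRNA peaks were named after their values were seen. Values of some genes within the rule are not reported here. Alternatives were other scalings, filters, thresholds, width and distance limits, DESeq2, a replicate block, the 2 groups alone, and leaving out each library.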

Additional observations from a re-analysis of the deposited data

How the results depend on the processing

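No named peak called in the main fit turned direction under an alternative. Of 3922 values of named peaks, 230 lost the call, 8 gained it and 3684 were counted as unchanged. For peaks not called in the main fit, a turned direction was counted as unchanged. Named calls lost under at least 1 alternative were 21 of 31 for lactate against NaCl, 12 of 68 for lactate and Oxyrase against NaCl, 12 of 55 for lactate and Oxyrase against lactate, and 14 of 39 for pyruvate against lactate. Causes of the changes below were not tested. For lactate against NaCl (949 peaks, median 0.002), the count was 472 at an adjusted p under 0.01, 418 with the width limit at 600 bp and 1694 at 1000 bp, and 188 to 1739 with 1 library left out; the median was 0.078 with total counts and -0.036 at 1000 bp. RNA of genes at starts gave 218 calls, 141 with the replicate block and 101 to 210 with 1 library left out (112 without NaCl replicate 1, 101 without NaCl replicate 2, 119 without lactate replicate 2 and 139 without lactate replicate 3). For pyruvate against NaCl that RNA count was 444, and 250 (without pyruvate replicate 2) to 375 with 1 library left out. For lactate and Oxyrase against NaCl (4059 peaks, median -0.05), the median was 0.058 with total counts, 0.034 with TMM from the narrow gene-end peaks, -0.111 with the loess trend removed, -0.088 over the 6905 peaks with a mean of at least 100 counts, -0.094 at a distance limit of 500 bp, -0.005 at 2.5 kb, 0.006 at a width limit of 600 bp and -0.11 at 1000 bp; the count was 6446 at 2.5 kb and 2485 at 600 bp. For lactate and Oxyrase against lactate (2487 peaks, median -0.064), the median was -0.014 with TMM from the narrow gene-end peaks, and the count was 1388 at an adjusted p under 0.01, 4244 at 2.5 kb and 1605 at 600 bp. For pyruvate against lactate (1382 peaks, median -0.001), the median was -0.065 with total counts, -0.039 with TMM from the narrow gene-end peaks and 0.035 at a width limit of 1000 bp; the count was 718 at an adjusted p under 0.01, 687 at 600 bp and 2283 at 1000 bp, and 650 to 1262 with 1 library left out. Total counts moved the median of all peaks by 0.11 in lactate and Oxyrase against NaCl.

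The labels state no pairing by replicate number, and the main fits used none. For pyruvate and NaCl, same-numbered libraries deviated together by 0.0469 to 0.198, over 0.1 in 2 of 3 pairs. Libraries of other numbers there gave -0.17 to 0.06. In the other comparisons at most 1 of 3 pairs was over 0.1. A shared effect of replicate number was not tested. With the replicate number as a block the counts of called peaks were 0, 1197, 4231, 2772 and 1608 (pyruvate, lactate, and lactate with Oxyrase against NaCl, then lactate with Oxyrase and pyruvate against lactate). A correction for GC content of whole peaks was not run, since no genome was used here. DESeq2 gave 0, 1053, 3976, 2345 and 1382 in the same order.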
